A study of Mus musculus with 6 samples.

Results

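The intestinal stem cell genes described here are *Lgr5*, *Ascl2*, *Olfm4*, *Smoc2*, *Tnfrsf19*, *Msi1*, *Prom1*, *Cd44*, *Ephb2* and *Ephb3*, which mark the stem cells at the crypt base or the dividing cells of the lower crypt. The 10 genes were taken by symbol, with earlier results of these data known. All 10 are among the 36172 genes of the deposited table, and all 10 are among the 10042 genes with at least 4 rpkm (reads scaled to the length of the gene and to the mapped reads of the library) in at least 1 library. *Olfm4* reached that level only in the *Trp53* R270H/R270H libraries, and *Msi1* only in those libraries and in 1 *Trp53* flox/flox library. RNA was sequenced from tumor-derived organoids, which are gel cultures of tumor epithelium that grow as spheres or tubes. The cultures came from small intestinal tumors of C57BL/6 mice aged 15 to 20 weeks. All 6 libraries, controls included, carry the *Apc* Δ716 mutation, which truncates Apc at codon 716. The paper reports that tumor cells with this mutation have lost the other *Apc* allele, which it does not show for these cultures. The 3 genotypes differ at *Trp53*. *Trp53* +/+ organoids have wild-type p53. In *Trp53* flox/flox organoids a stop cassette that was not recombined leaves both alleles functionally null. In *Trp53* R270H/R270H organoids the cassette was removed by *villin-CreER*, a tamoxifen-dependent recombinase expressed in intestinal epithelium, and both alleles encode the missense protein p53 R270H. The mice of these cultures were given tamoxifen, and in the paper's design this treatment is what separates them from flox/flox mice. Whether the mice of the +/+ cultures were given it or carried *villin-CreER* is not stated in the sources used here. In both comparisons with R270H/R270H organoids an effect of the treatment or the recombinase therefore cannot be told apart from the genotype. Each genotype has 2 libraries. That these came from separate mice or tumors is not stated either, so the p-values measure only the spread between these libraries, which may be technical. The comparison asks whether the genes of the crypt stem cell differ between tumor organoids with wild-type, absent and mutant p53. Genotypes are named by their *Trp53* alleles.

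Crypt base stem cells are kept in their state by Wnt signals from their surroundings. Wnt binding leads to the accumulation of β-catenin, which together with TCF factors switches on genes such as *Lgr5*, *Ascl2*, *Axin2*, *Ephb2* and *Ephb3*. Apc is part of the complex that degrades β-catenin, so intestinal cells without Apc keep this program on without a ligand, and stem cell genes are commonly expressed throughout *Apc*-mutant adenomas.

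*Trp53* itself, the gene that differs by design, was expressed at 74.3 to 75.9 rpkm in the +/+ libraries, at 1.73 and 2.48 rpkm in the flox/flox libraries and at 72.8 and 82.7 rpkm in the R270H/R270H libraries. The epithelial keratin *Krt18* was measured at 702 to 1340 rpkm and the epithelial adhesion gene *Epcam* at 280 to 399 rpkm. No value of the table is below 1 rpkm, so a gene listed at 1 rpkm may be at any level up to that. The depth of the libraries is not part of the table and was estimated from the steps of 1 read in short genes as 44.2 to 48.4 M reads. This estimate rests on 6 to 19 short genes a library and was weak for +/+ replicate 1 and flox/flox replicate 1, where another depth matched the steps nearly as well. The flox/flox libraries stood apart from each other. Replicate 1 had the highest sum of rpkm values, 484930 against 377845 to 413612 in the other libraries. It also had the fewest genes at 4 rpkm or more, 8409 against 8865 to 9201. Over all tested genes replicate 2 differed less from the +/+ libraries (mean absolute log2 difference 0.364 and 0.38) than from replicate 1 (0.462). The part of this in the flox/flox results was not tested. The typical s.d. of log2 values between the libraries of a genotype was 0.247 in flox/flox organoids, against 0.0463 in +/+ and 0.0621 in R270H/R270H organoids. Since the 3 genotypes share 1 estimate of the spread in the limma fit, each result was also fitted with each library left out. In fits without a +/+ or R270H/R270H library far fewer of all tested genes passed the test, in each comparison. A result lost in such a fit is therefore not particular to its gene.

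The stem cell genes did not move together between the genotypes. With limma on log2(rpkm+1) and Benjamini-Hochberg adjustment over all 10042 genes at 0.05, 4 of the 10 genes changed in at least 1 comparison (*Ascl2*, *Olfm4*, *Tnfrsf19* and *Prom1*) and 6 in none. Between R270H/R270H and +/+ organoids 1 gene was higher (*Olfm4*) and 1 lower (*Prom1*), where 12.2% of all genes tested were called (5.86% higher and 6.36% lower). Between flox/flox and +/+ organoids only *Tnfrsf19* was called, as lower, where 11.3% of all genes were called (4.38% higher and 6.9% lower). Between R270H/R270H and flox/flox organoids *Olfm4* and *Tnfrsf19* were higher and *Ascl2* was lower, where 24.6% of all genes were called (13.6% higher and 11.0% lower). The 3 comparisons share libraries and are not independent of each other. Their median log2 fold changes over the 10 genes were 0.13, 0.25 and -0.15 in this order, beside 0.03, -0.02 and 0.03 over all genes tested. Without regard to sign the median log2 difference was 0.76, 0.48 and 0.56, beside 0.28, 0.32 and 0.38 over all genes.

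**Figure D1:**
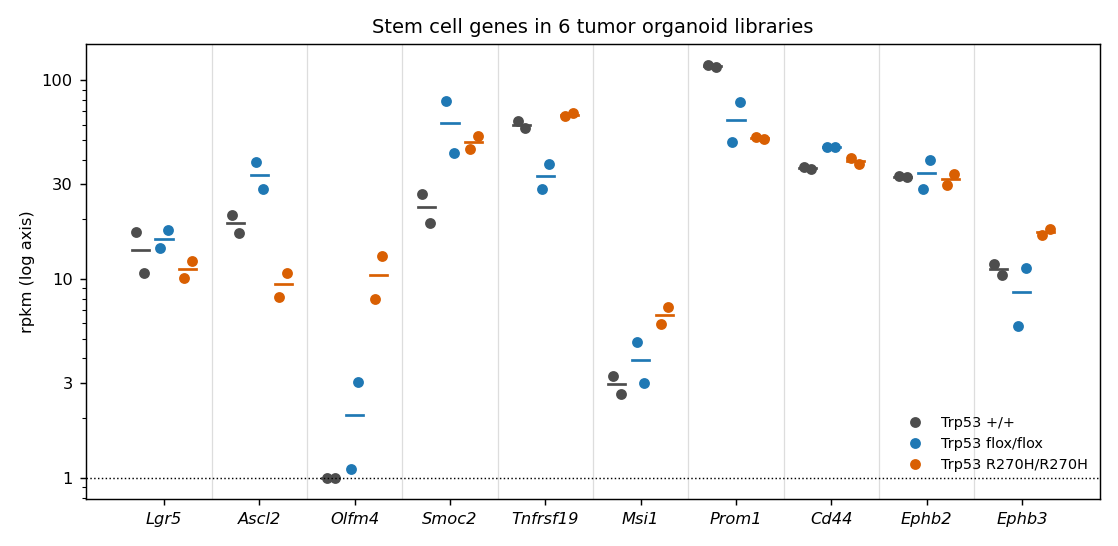
Level of the 10 stem cell genes in each of the 6 libraries, in rpkm on a log axis, with each point a library, colors for the 3 *Trp53* genotypes, short lines for the mean of the 2 libraries and the dotted line for the lowest value in the table (1 rpkm). *Olfm4* lies at the dotted line in both +/+ libraries and at 7.98 and 13.1 rpkm in the R270H/R270H libraries, whereas *Ephb2* lies between 28.5 and 39.9 rpkm in all 6 libraries.

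The summed level of the 10 genes overlapped between the genotypes, while its make-up differed. The sum was 333 and 305 rpkm in +/+, 296 and 309 rpkm in flox/flox and 283 and 305 rpkm in R270H/R270H organoids. *Prom1* made up 35.9% and 38.5% of this sum in +/+ organoids and 16.6% to 25.3% in the 4 other libraries. *Tnfrsf19* made up 18.7% and 18.9% in +/+ and 23.4% and 22.4% in R270H/R270H organoids, but 9.57% and 12.3% in flox/flox organoids. *Smoc2* made up 8.08% and 6.33% in +/+ organoids and 14.1% to 26.7% in the others. Of the 10 genes, the mean was highest in flox/flox organoids for 5, in R270H/R270H organoids for 4 and in +/+ organoids for 1. The mean was lowest in +/+ organoids for 4, in flox/flox organoids for 2 and in R270H/R270H organoids for 4. The same counts over all tested genes were not made, so how usual these orders are is not known. In these bulk libraries, fewer cells of a type and less RNA per cell cannot be told apart.

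*Lgr5* (chr10:115450311-115587780, minus strand, GRCm38), the R-spondin receptor that defines the crypt base stem cell, was expressed at 17.2 and 10.8 rpkm in +/+ libraries, 14.3 and 17.6 rpkm in flox/flox libraries and 10.1 and 12.4 rpkm in R270H/R270H libraries. The +/+ libraries spanned nearly the whole range, from R270H/R270H levels to flox/flox levels, and only the flox/flox and R270H/R270H libraries did not overlap. The log2 fold change was -0.26 between R270H/R270H and +/+ organoids (95% interval -0.89 to 0.36, adjusted p=0.515), 0.2 between flox/flox and +/+ organoids (-0.42 to 0.83, adjusted p=0.576) and -0.47 between R270H/R270H and flox/flox organoids (-1.09 to 0.16, adjusted p=0.204). No difference in *Lgr5* was detectable here, with a highest library 1.74 times the lowest, and its mean level lay near the middle of all tested genes, with 50.5% of them below it.

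*Ascl2* (chr7:142966829-142969264, minus strand), a basic helix-loop-helix transcription factor that is a Wnt target and maintains the stem cell program, lay above the +/+ level in p53-null organoids and below it in p53-mutant organoids. It was expressed at 21.1 and 17.1 rpkm in +/+ libraries, 38.8 and 28.4 rpkm in flox/flox libraries and 8.16 and 10.8 rpkm in R270H/R270H libraries. No genotype overlapped another, with flox/flox libraries above and R270H/R270H libraries below the +/+ libraries. From flox/flox to R270H/R270H organoids *Ascl2* fell by 1.72 on the log2 scale (s.e. 0.22, 95% interval -2.27 to -1.17, limma adjusted p=0.00984), with means of 33.6±7.37 and 9.46±1.84 rpkm (mean±s.d., n=2 for each genotype here and for all genes). Against +/+ organoids (19.1±2.85 rpkm) the log2 fold changes did not pass the threshold, at -0.95 in R270H/R270H organoids (-1.5 to -0.4, adjusted p=0.0512) and 0.77 in flox/flox organoids (0.22 to 1.32, adjusted p=0.0783). Over 14 alternative settings the adjusted p between R270H/R270H and flox/flox organoids ran from 0.00106 to 0.116, and it was 0.116 without R270H/R270H replicate 1 and 0.0685 without replicate 2 of that genotype. The adjusted p between R270H/R270H and +/+ organoids ran from 0.000903 to 0.318, with 6 of the 14 settings past the threshold, among them those without flox/flox replicate 1 (0.00761) and replicate 2 (0.0076).

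*Olfm4* (chr14:79984081-80023139, plus strand), a secreted glycoprotein that is abundant in crypt base stem cells of the small intestine, was the stem cell gene that varied most over the 6 libraries. It was listed at the lowest value, 1 rpkm, in both +/+ libraries, at 1.11 and 3.04 rpkm in flox/flox libraries and at 7.98 and 13.1 rpkm in R270H/R270H libraries. The R270H/R270H libraries lay above all others. Averaged over all 6 libraries *Olfm4* was low, with 12.4% of the tested genes at a lower mean. The mean in R270H/R270H organoids (10.5±3.6 rpkm, n=2) was at least 10.5-fold higher than in +/+ organoids, since the latter are at the lowest value, and 5.08-fold higher than in flox/flox organoids (2.07±1.37 rpkm). For a transcript of its length 1 rpkm stands for an estimated 131 reads, so the values above the lowest value rest on many reads. The limma test called *Olfm4* higher in R270H/R270H than in +/+ organoids (adjusted p=0.0199) and than in flox/flox organoids (log2 fold change 1.95, s.e. 0.37, 95% interval 1.0 to 2.9, adjusted p=0.0242). *Olfm4* passed the 4 rpkm filter only through the R270H/R270H libraries, so these calls are not independent of the filter. Both +/+ values are at the lowest value and so add no spread to the fit. With no filter on low values the adjusted p-values in limma were 0.0196 and 0.0266. Between flox/flox and +/+ organoids the difference was not called (adjusted p=0.335). Its fitted log2 fold change against +/+ organoids was 2.49 with a pseudocount of 1 and up to 3.35 with other settings, so the fitted size depends on the pseudocount. With any 1 +/+ or R270H/R270H library left out both calls were lost, but such fits called far fewer of all tested genes. The log2 fold change was then 2.17 to 2.81 in the first comparison, against +/+ organoids, and 1.62 to 2.27 in the second, against flox/flox organoids. Without flox/flox replicate 1 or 2 both calls stayed, at 2.49 in each fit of the first comparison and 1.48 and 2.42 in the second. Over all 14 alternative settings the adjusted p ran from 3.83e-05 to 0.185 in the first comparison and from 0.00136 to 0.14 in the second. Between flox/flox and +/+ organoids it was 0.0387 without flox/flox replicate 1, in a range of 0.0387 to 0.822.

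*Smoc2* (chr17:14279506-14404790, plus strand), a secreted matricellular protein of the crypt base, was expressed at 26.9 and 19.3 rpkm in +/+ libraries, 79.0 and 43.4 rpkm in flox/flox libraries and 45.3 and 52.7 rpkm in R270H/R270H libraries. Both genotypes with altered p53 lay above the +/+ libraries and overlapped each other. The means were 23.1±5.39, 61.2±25.1 and 49.0±5.23 rpkm, but neither difference from +/+ passed the test, with log2 fold changes of 1.32 in flox/flox (95% interval 0.52 to 2.13, adjusted p=0.0587) and 1.07 in R270H/R270H organoids (0.26 to 1.87, adjusted p=0.0901). Without flox/flox replicate 1 these adjusted p-values were 0.0278 and 0.00659, and without replicate 2 they were 0.00192 and 0.00661. Their ranges over 14 settings were 0.00192 to 0.352 and 0.00132 to 0.427.

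*Tnfrsf19* (chr14:60963875-61046490, minus strand), which encodes the TNF receptor family member Troy, a Wnt target of crypt base stem cells, was lower in the p53-null organoids than in both other genotypes. It was expressed at 62.5 and 57.5 rpkm in +/+ libraries, 28.3 and 38.0 rpkm in flox/flox libraries and 66.3 and 68.3 rpkm in R270H/R270H libraries. Both flox/flox libraries lay below all 4 others, and the R270H/R270H libraries lay just above the +/+ libraries. Against +/+ organoids (60.0±3.5 rpkm, n=2) *Tnfrsf19* fell by 0.85 on the log2 scale in flox/flox organoids (33.1±6.86 rpkm, n=2, s.e. 0.16, 95% interval -1.25 to -0.45, limma adjusted p=0.0353). Its mean was 2.03-fold higher in R270H/R270H (67.3±1.39 rpkm) than in flox/flox organoids, with a log2 fold change of 1.01 (s.e. 0.16, 95% interval 0.61 to 1.42, limma adjusted p=0.0159). Between R270H/R270H and +/+ organoids the log2 fold change was 0.16 (-0.24 to 0.57, adjusted p=0.534). With any 1 +/+ or R270H/R270H library left out both calls were lost, but such fits called far fewer of all tested genes. The log2 fold change was then -0.91 to -0.79 for the first difference and 0.99 to 1.03 for the second. The first call was also lost with a replicate block (limma adjusted p=0.0731, and 0.053 with the R270H/R270H numbers exchanged). It was lost as well in the fit of only the 2 genotypes compared (0.129) and with weights for each genotype (0.0987). The second was lost in the fit of only the 2 genotypes compared (0.0697). The ranges over 14 settings were 0.000535 to 0.263 and 0.000359 to 0.146.

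*Msi1* (chr5:115429599-115455698, plus strand), which encodes the RNA-binding protein Musashi-1 of stem and progenitor cells, was a low-level gene, with 12.1% of tested genes below its mean over the 6 libraries. It was expressed at 3.26 and 2.66 rpkm in +/+ libraries, 4.83 and 3.0 rpkm in flox/flox libraries and 5.97 and 7.23 rpkm in R270H/R270H libraries. The R270H/R270H libraries lay above the 4 others, which overlapped. The mean was 2.23-fold that of +/+ organoids, but the difference was not called, with a log2 fold change of 0.94 (95% interval 0.36 to 1.52, adjusted p=0.0575, range over 14 settings 0.000495 to 0.35). Without flox/flox replicate 1 or replicate 2 this adjusted p was 0.00375. Against flox/flox organoids the log2 fold change was 0.65 (0.07 to 1.23, adjusted p=0.0918).

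*Prom1* (chr5:43993620-44102032, minus strand), which encodes CD133, a membrane protein of cell protrusions and a stem cell marker of intestinal tumors, had the highest level of the 10 genes in +/+ organoids and lower values in both other genotypes. It was expressed at 120 and 117 rpkm in +/+ libraries, 48.9 and 78.1 rpkm in flox/flox libraries and 51.7 and 50.6 rpkm in R270H/R270H libraries. Both +/+ libraries lay above the 4 others, and the R270H/R270H libraries lay within the range of the flox/flox libraries. *Prom1* fell by 1.2 on the log2 scale in R270H/R270H against +/+ organoids (51.1±0.737 and 118±1.57 rpkm, n=2 each, s.e. 0.22, 95% interval -1.76 to -0.63, limma adjusted p=0.0331). In flox/flox organoids (63.5±20.6 rpkm) the log2 fold change of -0.93 was not called (-1.49 to -0.36, adjusted p=0.0589). The call for R270H/R270H organoids was lost with any 1 +/+ or R270H/R270H library left out, where far fewer of all tested genes were called. Its log2 fold change was -1.21 to -1.18 over 14 settings. Over the 8 of these with no library left out its limma adjusted p was 1.13e-05 to 0.0558. For flox/flox organoids the log2 fold change was -1.26 to -0.59 over the 14 settings, and the limma adjusted p was 0.0575 to 0.167 over the 8. *Msi1* and *Prom1* both lie on chromosome 5, on which the median of 650 tested genes was 0.29 higher on the log2 scale in flox/flox replicate 1 than the +/+ mean and 0.02 to 0.1 higher in the 3 other libraries with altered p53. For the chromosomes of the other 8 genes these medians were between -0.13 and 0.09.

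The 3 receptors of the lower crypt were not called in any comparison. *Cd44* (chr2:102811141-102901665, minus strand), the hyaluronan receptor and a Wnt target, was expressed at 36.8 and 36.0 rpkm in +/+ libraries, 46.0 and 46.0 rpkm in flox/flox libraries and 40.7 and 37.8 rpkm in R270H/R270H libraries. No genotype overlapped another, but the highest library was only 1.28 times the lowest. Its largest log2 fold change was 0.33, in flox/flox against +/+ organoids (95% interval 0.09 to 0.57, adjusted p=0.0801), and the adjusted p was 0.0219 without flox/flox replicate 1 and 0.0117 without replicate 2, in a range of 0.0117 to 0.412.

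*Ephb2* (chr4:136647539-136835988, minus strand) and *Ephb3* (chr16:21204755-21223305, plus strand) encode receptor tyrosine kinases for ephrin-B ligands, which keep crypt cells in their place along the crypt. *Ephb2* was expressed at 33.0 and 32.7 rpkm in +/+ libraries, 28.5 and 39.9 rpkm in flox/flox libraries and 29.9 and 33.9 rpkm in R270H/R270H libraries. All 3 genotypes overlapped, and the log2 fold changes lay between -0.08 and 0.04, with adjusted p of 0.746 to 0.899 and a 95% interval of -0.49 to 0.41 in R270H/R270H against +/+ organoids. *Ephb3* was expressed at 12.0 and 10.5 rpkm in +/+ libraries, 5.8 and 11.4 rpkm in flox/flox libraries and 16.7 and 17.9 rpkm in R270H/R270H libraries. The R270H/R270H libraries lay above all others, at 2.01-fold the flox/flox mean (17.3±0.831 and 8.62±3.99 rpkm), with a log2 fold change of 0.99 that was not called (95% interval 0.25 to 1.73, adjusted p=0.0625). Without flox/flox replicate 1, the library with the lowest *Ephb3* level, this adjusted p was 0.0121, and without replicate 2 it was 0.000533, in a range of 0.000533 to 0.273. Against +/+ organoids (11.3±1.09 rpkm) the log2 fold change in R270H/R270H organoids was 0.58 (-0.16 to 1.32, adjusted p=0.244), with an adjusted p of 0.00532 without flox/flox replicate 1 and 0.00553 without replicate 2, in a range of 0.00191 to 0.632.

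**Figure D2:**
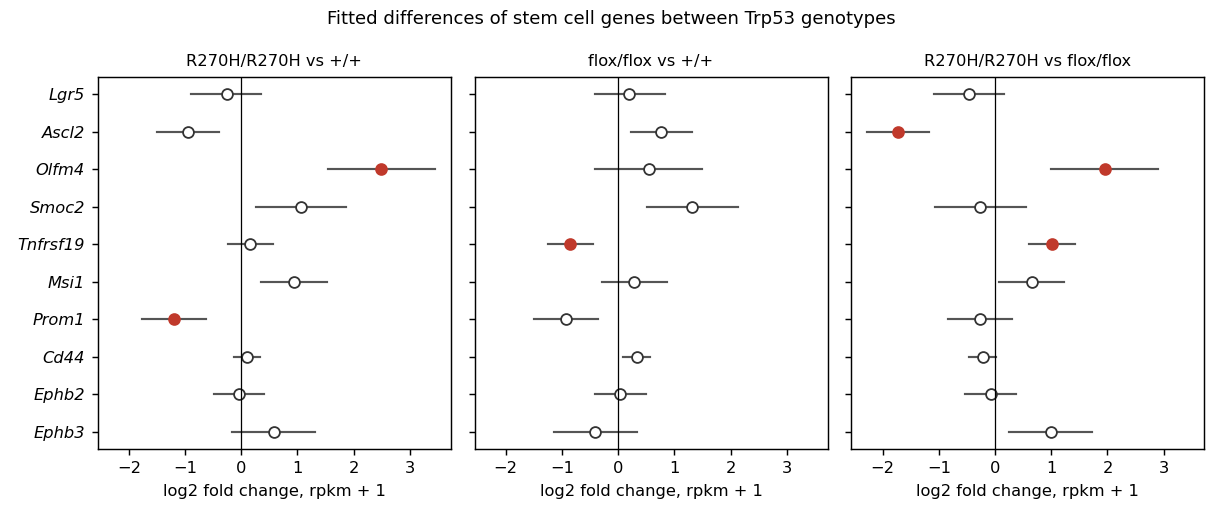
Fitted log2 fold change of rpkm + 1 for the 10 stem cell genes in the 3 comparisons, with points for the limma estimate and bars for the 95% interval, filled points marking adjusted p under 0.05. *Ascl2* lies at -1.72 and *Olfm4* at 1.95 between R270H/R270H and flox/flox organoids, whereas *Lgr5* and *Ephb2* have intervals across 0 in all 3 panels.

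Counted by libraries instead of by the test, both R270H/R270H libraries lay above both +/+ libraries for 6 of the 10 genes and below them for 2, where the groups did not overlap for 81.8% of all tested genes (44.2% above and 37.6% below). Both flox/flox libraries lay above both +/+ libraries for 4 genes and below for 2, where 64.5% of all genes did not overlap (30.6% above and 33.9% below). Both R270H/R270H libraries lay above both flox/flox libraries for 4 genes and below for 3, where 68.0% of all genes did not overlap (36.8% above and 31.2% below). With 2 libraries against 2, an exact permutation test of a single gene cannot give a two-sided p below 0.333.

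More of the 10 genes were called when either flox/flox library was left out. Without flox/flox replicate 1 or replicate 2, the fit of R270H/R270H against +/+ organoids called *Ascl2*, *Smoc2*, *Msi1* and *Ephb3* besides *Olfm4* and *Prom1*, while it called 5730 or 5732 of all 10042 genes in place of 1227. Between flox/flox and +/+ organoids it called 5 of the 10 genes without replicate 1 (*Olfm4*, *Smoc2*, *Tnfrsf19*, *Prom1* and *Cd44*) and 7 without replicate 2 (*Ascl2*, *Smoc2*, *Tnfrsf19*, *Msi1*, *Prom1*, *Cd44* and *Ephb3*), beside 4056 and 6875 of all genes. Between R270H/R270H and flox/flox organoids it called 8 without replicate 1, all but *Lgr5* and *Smoc2*, and 6 without replicate 2 (*Ascl2*, *Olfm4*, *Smoc2*, *Tnfrsf19*, *Cd44* and *Ephb3*), beside 5318 and 7259 of all genes. *Lgr5* was called in none of these fits.

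The genes also differed in their spread over all 6 libraries taken without groups. On the log2 scale the s.d. was 1.23 for *Olfm4*, 0.8 for *Ascl2* and 0.7 for *Smoc2*, which is more than in 98.0%, 92.8% and 90.1% of the tested genes. For *Cd44* and *Ephb2* it was 0.15 and 0.16, less than in most genes, and for *Lgr5* it was 0.31, close to the median of 0.3. The 5 genes with a profile nearest to *Lgr5* over the 6 libraries, among 2182 genes with an s.d. of at least 0.5, were *Zfpm1*, *Nr1h2*, *0610012G03Rik*, *1810019J16Rik* and *Dexi*, with mean absolute differences of 0.23 to 0.252 on the centered log2 scale. This minimum is above the s.d. of *Lgr5* itself. Genes that vary as little as *Lgr5* were therefore left out, and the 5 need not be its nearest genes. The nearest of the other stem cell genes, to which the minimum was not applied, were *Cd44* (0.215) and *Ephb2* (0.232), and the farthest was *Olfm4* (1.15). *Cd44* and *Ephb2* vary little, and a nearly flat profile has a small difference from *Lgr5* whatever its order of genotypes.

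The 300 bases around the start of each stem cell gene (250 before and 50 after) were taken from RefSeq on the GRCm38.p6 build and searched on both strands, and promoters of the 4 genes that passed the test are shown. The motifs were the TCF/LEF core (CTTTG followed by 2 letters that are each A or T), which is in 16.9% of the 32851 mouse promoters of the same length, the E-box CAGCTG bound by Ascl2-type factors (16.3%), the p53 decamer (8.36%) and the NF-kB motif (4.51%). Promoters were found for 7 of the 10 genes, with 9 starts in all, and *Lgr5*, *Smoc2* and *Msi1* had no entry. Of the 9 promoters 1 held the TCF/LEF core, 2 held CAGCTG, 2 held the NF-kB motif and 0 held the p53 decamer. Capitals mark the matches, and *Ascl2* and the first start of *Prom1* are shown without any.
Olfm4 (chr14:80000052-80000351, plus strand): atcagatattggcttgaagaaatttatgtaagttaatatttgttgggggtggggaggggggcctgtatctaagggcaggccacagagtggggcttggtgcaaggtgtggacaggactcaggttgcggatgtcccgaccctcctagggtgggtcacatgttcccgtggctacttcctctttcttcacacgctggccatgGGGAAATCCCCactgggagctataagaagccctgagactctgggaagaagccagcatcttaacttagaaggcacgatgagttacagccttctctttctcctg
Tnfrsf19 second start (chr14:61037938-61038237, minus strand): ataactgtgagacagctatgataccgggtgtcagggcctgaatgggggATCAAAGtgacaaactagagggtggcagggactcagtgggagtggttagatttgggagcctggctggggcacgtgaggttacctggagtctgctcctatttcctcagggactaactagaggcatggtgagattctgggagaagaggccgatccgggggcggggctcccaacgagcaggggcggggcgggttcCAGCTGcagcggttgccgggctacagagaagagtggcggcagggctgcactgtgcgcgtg
Ascl2 (chr7:142969215-142969514, minus strand): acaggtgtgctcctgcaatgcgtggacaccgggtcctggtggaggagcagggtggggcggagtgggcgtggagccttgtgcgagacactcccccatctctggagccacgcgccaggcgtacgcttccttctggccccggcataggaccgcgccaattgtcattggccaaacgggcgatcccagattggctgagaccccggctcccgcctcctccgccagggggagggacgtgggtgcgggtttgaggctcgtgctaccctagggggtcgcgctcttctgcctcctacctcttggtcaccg
Prom1 first start (chr5:44101687-44101986, minus strand): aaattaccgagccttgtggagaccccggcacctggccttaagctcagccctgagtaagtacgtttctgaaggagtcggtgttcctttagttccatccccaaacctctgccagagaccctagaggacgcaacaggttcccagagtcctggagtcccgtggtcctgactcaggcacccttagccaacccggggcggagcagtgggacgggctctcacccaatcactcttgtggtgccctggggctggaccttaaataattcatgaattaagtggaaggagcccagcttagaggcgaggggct
In the *Olfm4* promoter, whose RefSeq start lies inside the GENCODE span of the gene, the capitals hold 2 overlapping NF-kB matches, whose first bases lie 52 and 51 bases before the start. In the promoter of the second *Tnfrsf19* start they mark a TCF/LEF core, read on the other strand, 202 bases before the start and a CAGCTG 10 bases before it, and the first *Tnfrsf19* start held no match. The other matches were a CAGCTG 137 bases before the start of *Ephb3* and an NF-kB motif 211 bases before that of *Ephb2*. A match of letters is not a measured binding site, and more distant regions were not searched.

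The other genes of the crypt base and stem cell state were taken from a list of 28 genes, of which 27 passed the filter. In R270H/R270H against +/+ organoids 5 of the 27 rose and 2 fell, beside 5.86% and 6.36% of all genes, with a median log2 fold change of -0.12. *Znrf3*, a ligase that removes Wnt receptors and is itself a Wnt target, rose from 11.3±0.47 to 24.3±1.05 rpkm (log2 fold change 1.05, limma adjusted p=0.049). That call is at the threshold and was made in 3 of the 8 alternative settings with no library left out (limma adjusted p 4.21e-05 to 0.0833). *Mex3a*, an RNA-binding protein of slowly cycling crypt base cells, rose from 9.98±1.19 to 19.3±0.603 rpkm (0.89, adjusted p=0.0208). The transcription factor *Myb* rose from 12.9±1.42 to 26.3±0.746 rpkm (0.98, adjusted p=0.0191), the Polycomb gene *Bmi1* from 13.4±0.567 to 23.2±0.924 rpkm (0.75, adjusted p=0.0152) and the BMP co-receptor *Rgmb* from 2.45±0.118 to 4.86±0.596 rpkm (0.76, adjusted p=0.0305). *Rgmb* passed the 4 rpkm filter only through the libraries with altered p53 (4.44 to 5.28 rpkm), so its call is not independent of the filter. The genes that fell were *Igfbp4*, an IGF-binding protein (log2 fold change -0.92, adjusted p=0.0237), and *Msi2*, the paralog of *Msi1* (-0.51, adjusted p=0.0431). *Msi2* was expressed at 22.5 and 22.8 rpkm in +/+ libraries and 15.9 and 15.3 rpkm in R270H/R270H libraries, opposite in direction to the *Msi1* values above.

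In flox/flox against +/+ organoids 2 of the 27 rose and 3 fell, beside 4.38% and 6.9% of all genes, with a median log2 fold change of -0.24. *Id1*, an inhibitor of basic helix-loop-helix factors and a BMP target, rose from 23.2±0.993 to 59.6±2.56 rpkm (log2 fold change 1.33, limma adjusted p=0.00691), and *Rgmb* rose from 2.45±0.118 to 4.66±0.204 rpkm (0.71, adjusted p=0.037). The call of *Rgmb* again depends on the filter, which it passed only through the libraries with altered p53. *Msi2* fell to 8.3±0.818 rpkm (-1.35, adjusted p=0.00717). *Axin2*, a feedback inhibitor that is a standard readout of Wnt signaling, fell from 133±3.83 to 84.9±5.63 rpkm (-0.64, adjusted p=0.0315). *Cd24a*, a surface protein of crypt base cells, fell from 571±55.9 to 357±6.74 rpkm (-0.67, adjusted p=0.0353), but it has near-identical copies in the genome and its value is uncertain. The calls of *Axin2*, *Rgmb* and *Cd24a* were each made in 4 of the 8 alternative settings with no library left out (limma adjusted p up to 0.154, 0.22 and 0.226).

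In R270H/R270H against flox/flox organoids 7 of the 27 rose and 1 fell, beside 13.6% and 11.0% of all genes, with a median log2 fold change of 0.07. The Wnt feedback genes *Axin2* (181±14.1 against 84.9±5.63 rpkm, log2 fold change 1.08, limma adjusted p=0.00634) and *Znrf3* (24.3±1.05 against 7.78±2.89 rpkm, 1.57, adjusted p=0.0144) were among those that rose. The others were *Mex3a* (1.22, adjusted p=0.00735), *Msi2* (0.84, adjusted p=0.0106), *Bmi1* (0.57, adjusted p=0.0197), the ion transporter *Slc12a2* (0.53, adjusted p=0.0277) and *Cd24a* (0.5, adjusted p=0.0433). This call of *Cd24a* was made in 4 of the 8 alternative settings with no library left out (limma adjusted p up to 0.285). *Id1* fell to 20.9±1.42 rpkm (-1.47, adjusted p=0.00257). *Axin2* was measured at 136 and 130 rpkm in +/+, 80.9 and 88.9 rpkm in flox/flox and 171 and 191 rpkm in R270H/R270H libraries, the same order of genotypes as *Tnfrsf19*. *Ascl2*, also a Wnt target, had the reverse order in these means. *Tert*, the gene that did not pass the filter, was at 2.94 and 3.32 rpkm in +/+ libraries and 1.05 to 1.64 rpkm in the 4 others. In each of the 3 comparisons the number called moved by more than 1.5 times when a library was left out, as did the number over all tested genes.

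**Figure D3:**
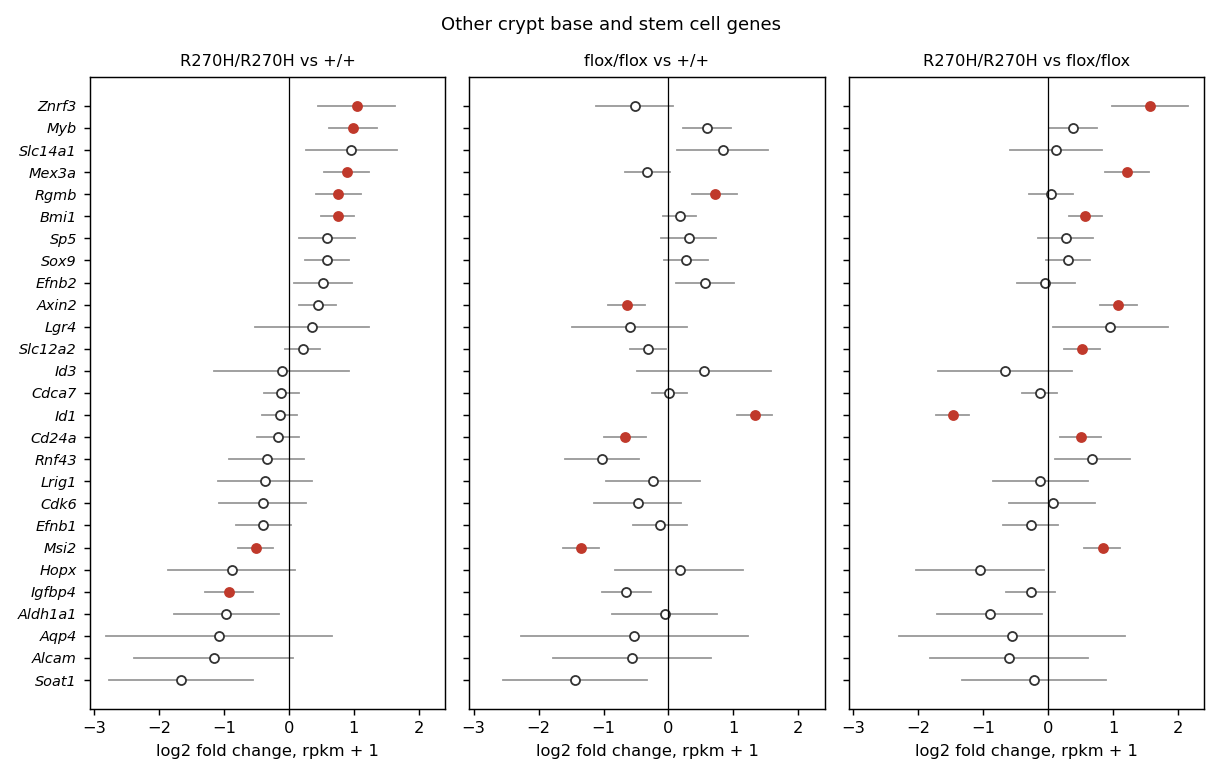
Fitted log2 fold change of rpkm + 1 for the 27 other crypt base and stem cell genes that passed the filter, in the 3 comparisons, with points for the limma estimate, bars for the 95% interval and filled points for adjusted p under 0.05. *Znrf3* lies at 1.05 in the first panel and 1.57 in the third, and *Id1* at 1.33 in the second and -1.47 in the third.

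Markers of other cell types also differed between the genotypes, and their part in the results was not tested. The summed level of 7 Paneth cell markers, with *Mmp7* and *Lyz1* the highest, was 1410 to 1770 rpkm in +/+, 601 to 630 rpkm in flox/flox and 524 to 579 rpkm in R270H/R270H organoids. Against +/+ organoids, 5 of the 6 tested Paneth markers fell and 1 rose in R270H/R270H organoids, and 4 fell in flox/flox organoids, although the lysozyme and defensin genes among them have near-identical copies that may share reads. Paneth cells lie beside the stem cells in the crypt base. Of the 10 stem cell genes, *Prom1* was the only 1 with its highest mean in +/+ organoids. The summed level of 10 listed genes of fetal-like, regenerating epithelium, with *Ly6a* and *Clu* the highest, was 1000 to 1140 rpkm in +/+, 939 to 1560 rpkm in flox/flox and 341 to 348 rpkm in R270H/R270H organoids, where 6 of 9 tested genes were lower than in flox/flox and 3 of 9 lower than in +/+ organoids. Of the 10 stem cell genes 4, *Ascl2* among them, had their lowest mean in R270H/R270H organoids, and 4 had their highest mean there. Cycling cell markers, with *Pcna* and *Top2a* the highest, summed to 649 to 659, 804 to 841 and 675 to 680 rpkm in +/+, flox/flox and R270H/R270H organoids, and epithelial markers, with *Krt18* and *Krt8* the highest, to 2690 to 2730, 4020 to 4270 and 2220 to 2370 rpkm.

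Mature cell types were near the lowest value of the table in part. Goblet cell markers, led by *Agr2* and *Tff3*, summed to 326 to 379 rpkm in +/+, 139 to 176 rpkm in flox/flox and 167 to 170 rpkm in R270H/R270H organoids, but the defining mucin *Muc2* and *Zg16* were at 1 rpkm in all 6 libraries. Enterocyte markers, led by *Anpep* and *Fabp2*, summed to 69.2 to 75.9, 29.1 to 34.1 and 39.8 to 50.2 rpkm, with 5 of 10 (*Apoa1*, *Apoa4*, *Lct*, *Sis* and *Slc2a2*) at 1 rpkm in all libraries. Enteroendocrine markers, led by *Chgb* and *Neurog3*, summed to 15.8 to 21.4, 9.86 to 10.6 and 8.0 rpkm, the last being the sum of 8 genes at the lowest value. Tuft cell markers, led by *Avil* and *Ptgs1*, summed to 29.2 to 34.5, 32.0 to 63.9 and 53.7 to 57.5 rpkm, with *Dclk1*, *Trpm5* and *Gfi1b* at 1 rpkm throughout. Of the cells outside the epithelium, 9 fibroblast and muscle markers summed to 9.0 rpkm, their lowest possible sum, in both +/+ libraries and flox/flox replicate 1, to 9.53 and 9.59 rpkm in R270H/R270H libraries and to 21.6 rpkm in flox/flox replicate 2, which held *Acta2* at 11.5 and *Col1a1* at 2.44 rpkm. Blood cell markers, led by *Cd68* and *Lyz2*, summed to 14.9 to 15.2, 7.06 to 20.8 and 7.22 to 7.41 rpkm, with *Ptprc*, *Cd3e* and *Csf1r* at 1 rpkm throughout. Endothelial markers, led by *Tek* and *Cdh5*, summed to 14.9 to 15.3, 4.0 to 26.7 and 4.13 to 4.2 rpkm, with *Pecam1* and *Kdr* at 1 rpkm throughout. The high flox/flox sums of the blood and endothelial lists were also those of replicate 2. That library held *Tek* at 21.4 and *Lyz2* at 5.67 rpkm, and both were at 1 rpkm in flox/flox replicate 1.

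**Figure D4:**
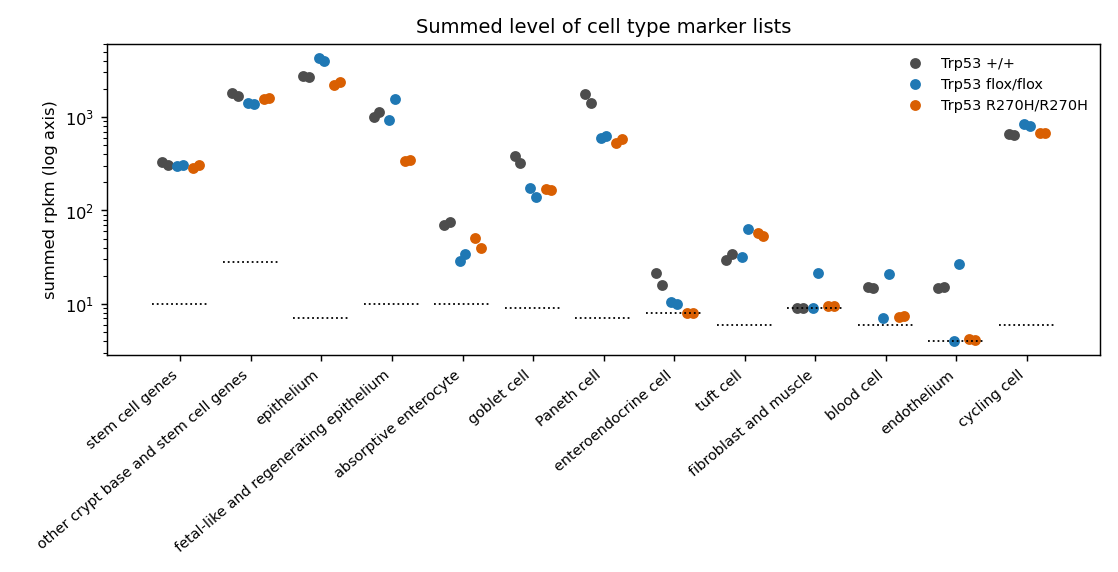
Summed level of each gene list in the 6 libraries, in rpkm on a log axis, with each point a library, colors for the 3 *Trp53* genotypes and dotted lines for the sum that a list would have with every gene at the lowest value of the table. The stem cell genes sum to 283 to 333 rpkm in all libraries, whereas the Paneth cell list is at 1410 to 1770 rpkm in +/+ libraries and at 524 to 630 rpkm in the 4 others.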

How the data were processed

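Poly(A) RNA of 6 organoid cultures was sequenced as stranded Illumina libraries. The authors aligned them to mm10 with StrandNGS and deposited the rpkm values it gave for each gene, and its version, annotation and read filters are not given in the sources used here. No deposited value is below 1 rpkm, and 23760 genes are at 1 rpkm in all 6 libraries.

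A gene was kept where any library had 4 rpkm or more (10042 of 36172 genes), and log2(rpkm+1) of all 6 libraries was fitted with limma 3.58.1 in R 4.3.3 (lmFit, eBayes with trend, no replicate block). Tests were two-sided, with Benjamini-Hochberg adjustment over all kept genes and a threshold of 0.05, and fold changes are on the log2(rpkm+1) scale, which understates changes of low genes. Python 3.11.15 with pandas 2.3.3 and matplotlib 3.10.9 was used for the rest. GENCODE M21 placed 9965 of the kept genes on GRCm38. The code was tested on simulated data.

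Groups came from the sample titles. The members and the gene lists were chosen with earlier results of these data known. All 10 stem cell genes are named, of the other crypt genes up to 6 called per direction and comparison, of each cell type list the 2 highest markers, and the 5 genes nearest to *Lgr5* among those with an s.d. of at least 0.5. A marker of the blood cell list is not reported here. Further markers at the lowest value, *Epcam*, *Acta2*, *Col1a1* and *Tert* were named after their values were seen. The alternatives were pseudocounts of 0.1 and 0, no filter, median-of-ratios scaling, a replicate block, fits of only the 2 genotypes compared, weights for each genotype and each library left out in turn. A block in which the numbers of the R270H/R270H libraries were exchanged was added after seeing the data.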

Additional observations from a re-analysis of the deposited data

How the results depend on the processing

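The values hold 2 libraries per genotype without read counts, so the tests rest on the spread pooled over genotypes, and levels under 1 rpkm are unknown. Of the 10 stem cell genes, 2, 1 and 3 were called between R270H/R270H and +/+, flox/flox and +/+, and R270H/R270H and flox/flox organoids. These counts stayed at 2, 1 and 3 with a pseudocount of 0.1, with none and with no filter, and were 3, 1 and 3 with median-of-ratios scaling. With only the 2 genotypes compared they were 6, 0 and 1, and with weights for each genotype 6, 0 and 1 (5 and 3 genes at an unadjusted p under 0.05 in limma for the counts of 0). Of all 10042 genes 5721, 47 and 378 were called with only the 2 genotypes compared and 5987, 150 and 534 with weights, in place of 1227, 1133 and 2469. Between R270H/R270H and flox/flox organoids the adjusted p of *Olfm4* was then 0.0849 and 0.0908, and that of *Ascl2* was 0.0654 with weights. The counts for the 27 other crypt genes were 7, 5 and 8, against 23, 0 and 3 with only the 2 genotypes compared and 23, 2 and 4 with weights (8 at an unadjusted p under 0.05 for the count of 0).

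With each library left out in turn the stem cell counts ran from 0 to 6, 0 to 7 and 0 to 8, and the counts of the other crypt genes from 0 to 23, 0 to 22 and 1 to 20. The high ends came without a flox/flox library and the low ends without a +/+ or R270H/R270H library. Fits of the latter kind also called far fewer of all tested genes, so the low ends are not particular to these genes. A genotype left with 1 library was assumed to vary like the others. The log2 fold change changed its sign for *Lgr5* (-0.58 to 0.05 between R270H/R270H and +/+, and -0.11 to 0.52 between flox/flox and +/+), for *Smoc2* and *Prom1* between R270H/R270H and flox/flox (-0.68 to 0.17 and -0.6 to 0.06), for *Ephb2* (-0.13 to 0.05, -0.19 to 0.27 and -0.32 to 0.15 in the 3 comparisons) and for *Ephb3* between flox/flox and +/+ (-0.85 to 0.02). None of these was called with all 6 libraries. The 240 other values of single stem cell genes, with no library left out, kept their sign.

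Same-numbered libraries came from different mice, and the correlation of their deviations from the genotype means was 0.117, -0.291 and -0.196, so the numbers were not taken to pair the libraries. A fit with a block for the replicate number gave 1, 0 and 3 for the stem cell genes (5 at an unadjusted p under 0.05 in limma for the count of 0). It gave 2, 2 and 5 for the other crypt genes. Over all 10042 genes it called 550, 280 and 1156, in place of 1227, 1133 and 2469. The calls of *Prom1* between R270H/R270H and +/+ organoids (limma adjusted p=0.0558) and of *Tnfrsf19* between flox/flox and +/+ organoids (0.0731) were lost. When the numbers were exchanged in R270H/R270H organoids the block gave 5, 2 and 3 stem cell genes and 5, 3 and 7 others. It then called 941, 873 and 2276 of all genes.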
